A study of Mus musculus with 10 samples.

Results

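Fat cells and macrophages share adipose tissue but come from different lineages, and here their gene programmes were set against each other with each line grown alone. Of the 10 samples of the series, 5 entered the comparison, namely the 3 labelled as 3T3-L1 adipocytes in monolayer and the 2 labelled as RAW 264.7 macrophages in monolayer. 3T3-L1 is a mouse embryonic fibroblast line that turns into fat-storing cells after treatment with IBMX, dexamethasone and insulin, and the cells carried visible lipid droplets at day 8 of differentiation before they were replated. RAW 264.7 is a mouse macrophage line. The other 5 samples, 3 of adipocytes and 2 of macrophages, came from a bilayer in which both lines shared medium for 24 h across a membrane with 0.4 µm pores. They were used to estimate the spread and as a repeat of the contrast. The labels name no transgene or deletion in either line, and no treatment of either monolayer other than the differentiation of the adipocytes.

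Each line is 1 established cell line, so the contrast is between these lines and not between fat cells and macrophages of an animal. The protocol pools 5 dishes per sample, and the series record calls the samples biological replicates. Separate cultures are not stated, so each p-value reflects nothing more than how these particular samples scattered, and that scatter may be technical. The number of arrays limits the precision. Pairs of arrays of 1 line correlated at r = 0.990 to 0.991 across probes, and pairs of different lines at 0.842 to 0.844, as a description over probes that share arrays.

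As background, adipocytes store triglyceride in a lipid droplet, take up glucose in response to insulin and secrete hormones, under control of the nuclear receptor PPARγ and the factor C/EBPα. They come from mesenchymal precursors that also lay down collagen and other matrix. Macrophages are blood-lineage cells that sense microbes, engulf particles and digest them in lysosomes, and their genes depend on the ETS-family factor PU.1, encoded by Spi1. In fat tissue macrophages respond to signals from adipocytes and release cytokines that act back on them.

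The lines differed in most of the genes they expressed. Of 12324 genes tested, 8091 (65.7%) differed by limma at adjusted p under 0.05, 4061 (33.0%) higher in adipocytes and 4030 (32.7%) higher in macrophages. Counts within gene groups below are to be read against these shares. A test against a 2-fold margin called 3407 genes (27.6%), 1812 higher in adipocytes and 1595 higher in macrophages. The estimated difference was at least 16-fold for 415 genes higher in adipocytes and 321 higher in macrophages. The median log2 difference over all genes was -0.02 and the median size 0.70. The monolayer values of the lines did not overlap for 9270 genes (75.2%).

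Part of this was genes measured in a single line. A value was counted as measured above an intensity of 10.9, a bound that 99% of the values below 0 on these background-subtracted arrays did not exceed in size. On that basis 836 genes (6.78%) were above the bound on all 3 adipocyte arrays while none of their probes exceeded it on a macrophage array. The reverse held for 598 genes (4.85%). For such genes the fold is a lower bound, computed on the log2(intensity + 16) scale against the higher of the bound and the measured value, and is written as "at least". The same bound was used where a group's mean was below 10.9 although some of its arrays exceeded it. Other folds use the same scale, on which changes of dim genes come out too small. Values are those of each gene's brightest probe, and for called genes 66.4% of 6033 other probes tested gave a smaller log2 difference. A further 7894 genes were above the bound on all 5 arrays, and of these 2865 were higher in adipocytes, 3044 higher in macrophages and 1985 not called. For 1419 genes (11.5%) the 95% interval of the log2 difference lay within 0.5 of 0, a margin of 1.41-fold.

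**Figure D1:**
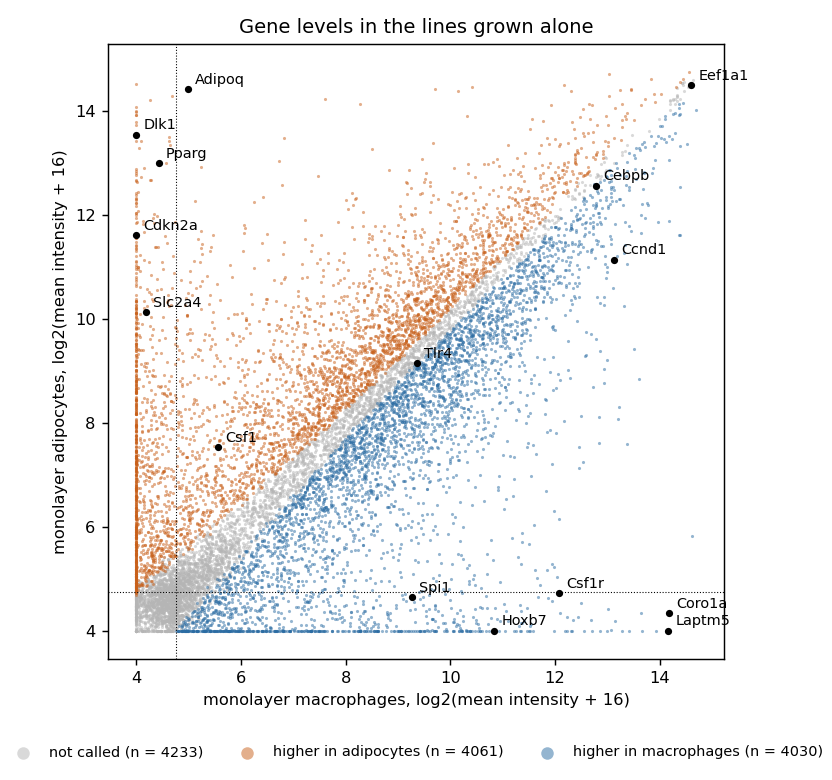
Mean level of each of the 12324 genes tested in monolayer macrophages (x axis, 2 arrays) and monolayer adipocytes (y axis, 3 arrays), both as log2(mean intensity + 16). Orange points were higher in adipocytes (4061), blue points higher in macrophages (4030) and grey points not called (4233). Dotted lines mark the noise bound of 10.9, and the points along each axis are genes measured in 1 line alone.

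Both labels fit their defining markers. All 14 adipocyte markers tested were higher in adipocytes, and 11 of 12 macrophage markers tested were higher in macrophages. A further macrophage marker on the array, Fcer1g, was above the bound on no monolayer array and was not tested. Adipoq, which encodes the fat cell hormone adiponectin, had intensities of 21747, 22220.0 and 22156 on the adipocyte arrays and 12.1 and 19 on the macrophage arrays, 704-fold higher in adipocytes (adjusted p = 8.78e-18). The adipokine genes Lep and Retn were measured in adipocytes alone. Lep, which encodes leptin, was at 56, 65.7 and 68.3 and Retn, which encodes resistin, at 121, 130.2 and 105. Csf1r, the receptor that macrophages need to survive, was at 3.31, 5.71 and 22.2 in adipocytes and 4228 and 4386 in macrophages, at least 143-fold higher in macrophages (adjusted p = 4.5e-13), with 1 adipocyte array above the bound. Ptprc, the leukocyte antigen CD45, was at 151 and 140.4 in macrophages and above the bound on no adipocyte array. Mrc1, the mannose receptor of tissue macrophages, stayed below the bound on all 5 arrays (3.68, -8.71 and 0.920 in adipocytes, 9.85 and 8.83 in macrophages). Its log2 difference of -0.54 did not pass (95% interval -1.12 to 0.04).

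The adipocyte samples also carried high levels of genes of the fibroblast they derive from. Of 11 preadipocyte and fibroblast markers tested, 10 were higher in adipocytes, and all but Cd34 passed. Dlk1, an inhibitor of fat cell differentiation that preadipocytes express, had intensities of 11926, 12135 and 12011 on the adipocyte arrays and -0.346 and -0.00141 on the macrophage arrays, at least 448-fold. Pdgfra, a receptor of mesenchymal precursors, was at 908, 1087 and 888, and Thy1, a fibroblast surface antigen, at 1162, 1259.8 and 1155. All 4 smooth muscle markers tested were higher as well, of 6 on the array. The other markers, Cnn1 and Tagln, were above the bound on no monolayer array and were not tested. Acta2, the smooth muscle actin, had 6167, 6609.9 and 5531 in adipocytes against 96.5 and 93 in macrophages, 55.1-fold (adjusted p = 1.26e-15). Undifferentiated and differentiated cells cannot be told apart in these bulk samples, nor can fewer cells of a type and less RNA per cell, and the part of either in the groups below that were higher in adipocytes was not tested.

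Markers of other cell types were few. None of 5 endothelial markers tested was called, by limma at either direction. Of 3 lymphocyte markers 1 was called, Nkg7 (20.7, 7.39 and 25.1 in adipocytes, 1.86 and -3.51 in macrophages), and it lost its call without adipocyte array 3 (adjusted p = 0.0565) or macrophage array 2 (0.0733). Of 4 granulocyte and dendritic cell markers tested 2 were called. Flt3, Mpo and S100a9, the last in the same family as S100a8, were also on the array. They were above the bound on no monolayer array and were not tested. Elane, the neutrophil elastase gene, was at 58.1, 42.6 and 52.4 in adipocytes and below the bound in macrophages. S100a8, a calcium-binding protein gene of neutrophils, was high in both lines (807, 724 and 792 in adipocytes, 674 and 614 in macrophages), and its 1.20-fold difference lost its call without adipocyte array 1 (adjusted p = 0.0861), adipocyte array 3 (0.0751) or macrophage array 2 (0.208).

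Transcription factor genes divided the lines sharply. Of 24 adipocyte and mesenchymal factor genes tested, 21 were higher in adipocytes and 0 lower, with a median log2 difference of 3.00. Of 18 myeloid factor genes, 14 were higher in macrophages and 0 lower, with a median of -2.28. Pparg, the master regulator of fat cell differentiation, had intensities of 7879, 8197 and 8575 on the adipocyte arrays and 6.12 and 4.88 on the macrophage arrays. It was at least 306-fold higher in adipocytes (adjusted p = 3.19e-18). Its partner Cebpa was at 464, 510.0 and 511 against 5.57 and 0.365, at least 19-fold. Both were measured in adipocytes alone.

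Several mesenchymal factor genes showed the same division. Nfib, a nuclear factor I gene, was at 1832, 1726 and 1655 in adipocytes and 2.49 and -5.70 in macrophages by its brightest probe, at least 65.2-fold, although another of its probes exceeded the bound on both macrophage arrays. Ebf1, an early factor of both fat cells and B lymphocytes, was at 629, 637 and 564 against 14.2 and 25.9, 17.6-fold. Tead1, the DNA-binding partner of YAP, was at 346, 387 and 330.2 and at least 13.7-fold higher. Twist2, a mesenchymal repressor, was expressed in both lines, at 809, 731 and 707 in adipocytes and 165 and 166 in macrophages, 4.21-fold higher in adipocytes.

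On the macrophage side, Spi1 had intensities of 11, 12 and 3.99 in adipocytes and 572 and 625 in macrophages, at least 22.5-fold higher in macrophages (adjusted p = 6.77e-12). Adipocyte arrays 1 and 2 lay just above the bound. Irf8, which directs monocyte and dendritic cell fate, was at 3.66, 0.447 and 5.75 against 1423 and 1323, at least 51.6-fold. Cebpe, a factor of late granulocyte maturation, was at 0.617, -1.07 and 2.51 against 1210.0 and 1070.4, at least 42.9-fold. Ikzf1, the lymphoid and myeloid factor Ikaros, was at 7.01, 7.49 and 1.12 against 1108 and 1185 by its brightest probe. Irf5, which drives inflammatory cytokine genes, was above the bound on all 5 arrays, at 45.7, 45.8 and 38.2 and 2607 and 2680.2, 45-fold. Fli1, an ETS factor of blood and vessel cells, was measured in macrophages alone at 211 and 232, and Lyl1, a relative of the stem cell factor TAL1, was at 0.119, -0.330 and 16.6 against 572 and 684, with adipocyte array 3 alone above the bound. Runx1 was at 18.6, 4.21 and 0.832 in adipocytes and 76.7 and 78.6 in macrophages, at least 3.20-fold.

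The C/EBP family split by member. Cebpa was measured in adipocytes alone and Cebpe in macrophages alone, whereas Cebpb and Cebpd, the early factors of the fat cell cascade, were bright in both lines. Cebpb had 6078, 6034 and 6118 in adipocytes and 6766 and 7343 in macrophages, a log2 difference of -0.21 (95% interval -0.42 to -0.01, adjusted p = 0.0669). It passed when only the 5 monolayer arrays were fitted (adjusted p = 0.00992) and after a further quantile normalization (0.0234). Cebpd had 462, 485 and 489 and 505 and 532, a log2 difference of -0.11 (95% interval -0.31 to 0.09, adjusted p = 0.318). The other factor genes that did not pass were Tbx15 among the mesenchymal and Gfi1, Mitf, Myb and Irf4 among the myeloid, all of them dim. Irf4 was called higher in adipocytes without adipocyte array 1 (adjusted p = 0.0250).

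**Figure D2:**
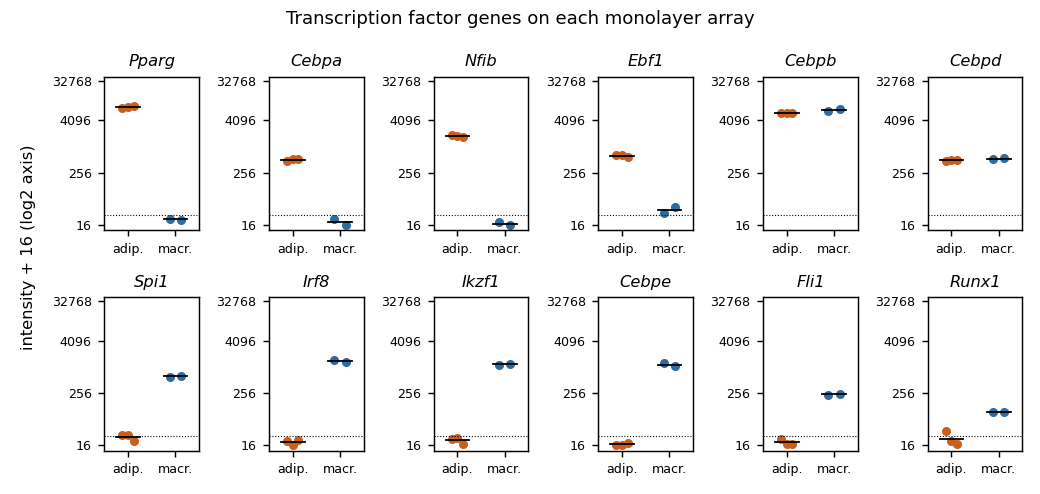
Intensity + 16 on a log2 axis for 12 transcription factor genes on each monolayer array (3 adipocyte arrays in orange, 2 macrophage arrays in blue). Black bars are means of the log2 values and the dotted line is the noise bound. Pparg, Cebpa and Nfib lie high in adipocytes, Spi1, Irf8, Ikzf1 and Cebpe high in macrophages, and Cebpb and Cebpd at like levels in both.

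The promoters of genes measured in macrophages alone held the core motif of PU.1 more often than other promoters. The motif GAGGAAG, searched on both strands from 250 bases before to 50 after the RefSeq transcription start (GRCm38.p6), was found in 105 of 456 promoters (23.0%) of such genes. It was found in 94 of 635 promoters (14.8%) of genes measured in adipocytes alone, in 1356 of 9944 (13.6%) of all genes tested and in 13.5% of all 27025 RefSeq promoters. With a measured level set at 5 times the bound the shares were 26.1% and 15.3%. Median GC content was 56.3% in the macrophage set, 59.0% in the adipocyte set and 60.0% over genes tested, and its part in the shares was not tested. A nuclear receptor element, AGGTCA, was held by 12.3% of macrophage and 12.1% of adipocyte promoters against 12.4% of genes tested. The AP-1 motif TGACTCA was held by 5.26% and 4.41% against 3.83%, and the TEAD motif GGAATG by 11.8% and 14.0% against 12.2%. The motifs were counted separately, and none contains another. These shares are descriptions, and a match is not a bound site.

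Shown here are the promoters of the 4 genes with the highest macrophage mean among those measured in macrophages alone whose promoter holds the PU.1 motif, with the match in capitals. They run 5′ to 3′ on the gene's strand and come from RefSeq, build GRCm38.p6. Each holds the motif on the opposite strand, so it reads as CTTCCTC here.
Laptm5: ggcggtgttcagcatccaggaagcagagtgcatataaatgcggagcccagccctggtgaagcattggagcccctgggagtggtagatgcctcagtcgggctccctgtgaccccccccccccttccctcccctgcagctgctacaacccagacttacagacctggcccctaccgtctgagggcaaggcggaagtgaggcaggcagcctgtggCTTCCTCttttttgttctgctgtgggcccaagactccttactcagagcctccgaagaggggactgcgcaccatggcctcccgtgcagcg
Pf4: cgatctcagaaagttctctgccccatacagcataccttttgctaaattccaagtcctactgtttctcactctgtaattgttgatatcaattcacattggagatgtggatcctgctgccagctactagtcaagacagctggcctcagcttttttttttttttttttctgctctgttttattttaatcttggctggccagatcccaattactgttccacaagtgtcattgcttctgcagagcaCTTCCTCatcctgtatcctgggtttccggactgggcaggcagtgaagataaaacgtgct
Clec4d: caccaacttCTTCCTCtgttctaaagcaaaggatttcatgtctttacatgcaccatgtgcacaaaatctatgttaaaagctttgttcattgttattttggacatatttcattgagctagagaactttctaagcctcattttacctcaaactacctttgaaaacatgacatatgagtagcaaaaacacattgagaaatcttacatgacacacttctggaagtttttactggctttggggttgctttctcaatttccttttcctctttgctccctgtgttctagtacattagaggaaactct
C1qc: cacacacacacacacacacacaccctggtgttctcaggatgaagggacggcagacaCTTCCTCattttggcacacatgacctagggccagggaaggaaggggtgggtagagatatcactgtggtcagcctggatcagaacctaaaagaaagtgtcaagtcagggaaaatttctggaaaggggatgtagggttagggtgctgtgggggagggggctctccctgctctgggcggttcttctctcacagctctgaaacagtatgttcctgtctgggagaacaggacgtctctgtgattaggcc

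The match starts 39 bases before the transcription start in Laptm5 (chr4:130913066-130913365, plus strand), which encodes a lysosomal membrane protein of blood cells. In Pf4 (chr5:90772185-90772484, plus strand), the chemokine platelet factor 4, it starts 9 bases before. In Clec4d (chr6:123261857-123262156, plus strand), a C-type lectin that senses mycobacteria and fungi, it lies 241 bases before, and in C1qc (chr4:136892865-136893164, minus strand), a chain of the first complement component, 194 bases before. Laptm5 was at 18699 and 17824 on the macrophage arrays and -0.438, -1.69 and -0.657 on the adipocyte arrays, Pf4 at 11803 and 9827 and -3.50, -4.49 and -6.98, Clec4d at 7404 and 7486 and 0.833, 5.91 and -10.6, and C1qc at 6019 and 5992 and -3.94, -2.18 and -9.86. No adipocyte array exceeded the bound for any of them.

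Of 19 nuclear receptor genes tested, 14 were higher in adipocytes, 0 were higher in macrophages and 5 were not called, with a median log2 difference of 1.67. Nr1h3, which encodes the oxysterol receptor LXRα, was at 1366, 1382 and 1441 in adipocytes and 11.7 and 23.4 in macrophages, 42.7-fold higher in adipocytes. Nr1d1, which encodes the clock repressor REV-ERBα, was at 191, 158 and 199 and measured in adipocytes alone, and Rora, its activating counterpart, was at 289, 324 and 290.1 against 21.2 and 28.9. Rxrb, an obligate partner of many of these receptors, was at 982, 1045 and 1177 against 1024 and 1170.0, a log2 difference of -0.04 (95% interval -0.23 to 0.15). The glucocorticoid receptor gene Nr3c1 was dim in both lines, at 38.1, 34 and 25.3 and 41.5 and 24.4 (log2 difference -0.0017, 95% interval -0.79 to 0.79). Rara, Esr1 and Nr4a2 were also not called.

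Genes that build and break down the lipid droplet were largely an adipocyte set. Of 27 tested, 23 were higher in adipocytes, 20 of them by more than 2-fold, 1 was higher in macrophages and 3 were not called, with a median of 3.64. Cidec, which fuses droplets, was at 16628, 17366 and 17792 against -2.85 and -8.39, at least 642-fold. Plin4, a droplet coat protein, was at 7515, 7882 and 7495 and at least 284-fold higher, and Pnpla3, a lipase-family gene, at 4715, 4781 and 4947 and at least 179.6-fold. G0s2, the inhibitor of the triglyceride lipase ATGL, was at 5249.9, 5524 and 5852 and at least 206-fold higher.

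The perilipins divided by member. Plin1 and Plin4, the fat cell forms, were far higher in adipocytes, with Plin1 at 906, 857 and 949 against 18.5 and 3.19 (at least 30.2-fold). Plin2, the form found on droplets of most cells, did not differ beyond its spread, at 761, 767 and 757 against 728 and 729 (log2 difference 0.06, 95% interval -0.17 to 0.30). Plin3, a ubiquitous form, was 1.26-fold higher in macrophages, at 653, 539 and 553 against 744 and 721 (adjusted p = 0.00489). The other members not called were the fatty acid transporter gene Slc27a1, at 753, 624 and 755 against 671 and 841, and the phosphatidate phosphatase gene Lpin2. Lpin2 was at 40.5, 70 and 51.4 against 69.1 and 81.8 and was called higher in macrophages without adipocyte array 2 (adjusted p = 0.0231). All 6 brown and beige fat genes tested were higher in adipocytes, 3 of them by more than 2-fold. They included Cox8b, a subunit of cytochrome oxidase, at 1436, 1006 and 1224 and measured in adipocytes alone, and the coactivator gene Ppargc1a at 125, 143 and 145. Of 12 such genes on the array, 6 were not above the bound on enough arrays to be tested. They were the uncoupling protein gene Ucp1 and Dio2, Elovl3, Prdm16, Tbx1 and Tmem26. None of them exceeded the bound on an adipocyte array with its brightest probe.

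Insulin signalling and glucose uptake genes moved both ways, with 6 of 13 higher in adipocytes, 5 higher in macrophages and 2 not called (median 0.13). Each line had its own glucose transporter genes. Slc2a4, the insulin-responsive transporter GLUT4, was at 1147, 1070.4 and 1095 in adipocytes and 6.87 and -2.44 in macrophages, at least 41.6-fold higher in adipocytes. Slc2a3, the transporter GLUT3, was at -2.02, -2.27 and -1.08 in adipocytes and 1229 and 1259.9 in macrophages, at least 46.9-fold higher in macrophages. Slc2a6, a lysosomal transporter, was at 6.01, 0.0945 and 17.5 against 3934 and 3912, at least 136-fold higher in macrophages, with 1 adipocyte array above the bound. Slc2a1, the widespread transporter GLUT1, was above the bound in both lines, at 1411, 1797 and 2169.6 against 3386 and 3357, and its level was 1.90-fold higher in macrophages (adjusted p = 7.16e-06). It falls outside the rule for named genes and was chosen after its values were seen.

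The insulin receptor gene Insr was at 2062, 2187 and 2133 in adipocytes against 133 and 123 in macrophages, 14.9-fold. Its docking protein gene Irs2 was at 907, 972 and 1117 against 46.3 and 57.8, 14.9-fold. Pcx, the pyruvate carboxylase gene, was at least 85.1-fold higher in adipocytes, at 2338, 2419.7 and 2307 against 7.27 and 12.8, where 1 macrophage array was above the bound. The hexokinase genes tested went the other way. Hk3 was at -0.135, 3.45 and -1.10 against 803 and 907 and measured in macrophages alone, and Hk1 was 2.55-fold higher in macrophages. Hk2, also listed, was not on the array. Akt1 and Irs1 were dim and not called. Irs1, at 19.1, 15.7 and 11.8 against 10.8 and 40.7, was called higher in macrophages without macrophage array 1 (adjusted p = 0.0378).

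Genes that sense microbes were higher in macrophages for 19 of 24 members tested, with a median of -2.37. Tlr7, a receptor of single-stranded RNA, was at -5.74, -0.937 and 3.86 in adipocytes and 1493 and 1500.0 in macrophages, at least 56.2-fold. Tlr13, a receptor of bacterial ribosomal RNA in mice, was at -3.96, 0.666 and -2.26 against 1691 and 1702, at least 63.7-fold by its brightest probe. Clec4d, shown above, and Clec4e, the lectin Mincle, were the other leading members, with Clec4e at 33.1, 17.8 and 17.7 against 2689 and 2496, 68.2-fold.

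A few sensors did not follow. Tlr4, the lipopolysaccharide receptor, was at 544, 562 and 551 in adipocytes and 709 and 573 in macrophages, a log2 difference of -0.20 (95% interval -0.41 to 0.01). It was called higher in macrophages without macrophage array 2 (-0.35, adjusted p = 0.0137). Ddx58, which encodes the RNA sensor RIG-I, was above the bound on all 5 arrays and not called (95% interval of the log2 difference -0.33 to 0.33). Nod1, a sensor of bacterial peptidoglycan, was the 1 member higher in adipocytes, at 496, 622 and 575 against 62 and 41.1, 8.66-fold (adjusted p = 6.91e-10). Tlr3 and Tlr9 were dim and not called.

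Of 18 Fc, complement and scavenger receptor genes tested, 14 were higher in macrophages, 3 higher in adipocytes and 1 not called (median -3.59). Fcgr3, a low-affinity receptor of antibody, was at -4.84, -3.77 and -1.34 in adipocytes and 4972 and 5299.9 in macrophages, at least 191-fold. Tyrobp, the signalling adaptor of many of these receptors, was at -7.63, 0.579 and 0.195 against 4862 and 4414, at least 173-fold. The 3 receptor genes higher in adipocytes take up lipid or apoptotic cells. They were Cd36, at 109.6, 82.4 and 102 against -2.57 and -2.54, Scarb1, at 201, 184 and 184 against 42.6 and 77.8, and Axl, at 1414, 1546 and 1573 against 3.66 and 1.35. Mertk, a receptor of the same family as Axl, was higher in macrophages, at 86.9, 103 and 99.9 against 474 and 464, 4.31-fold. Timd4, a phosphatidylserine receptor of resident macrophages, was not called.

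Of 8 NADPH oxidase genes, 5 were higher in macrophages and 3 in adipocytes. Cyba, a membrane subunit of the phagocyte oxidase, was at 6.22, -1.55 and -3.99 in adipocytes and 8409 and 8737 in macrophages, at least 319-fold. Its cytosolic partner Ncf4 was at -3.98, -5.54 and 0.936 against 6879.6 and 6403, at least 247-fold. Nox4, the oxidase catalytic subunit of mesenchymal cells, was at 24.3, 35.3 and 27.7 against -2.22 and -5.61, and Noxo1, an organizer of other oxidases, at 50.2, 59.8 and 53.4 against 22 and 10.7, both higher in adipocytes. The third was Rac1, described with its paralogue below.

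Among 15 cathepsin and cystatin genes, 11 were higher in macrophages, 3 higher in adipocytes and 1, Ctso, not called (median -1.06). Ctss, the lysosomal protease that trims the invariant chain, was at -0.311, 3.31 and 26.3 in adipocytes and 709 and 797 in macrophages, at least 24.5-fold, with adipocyte array 3 alone above the bound. Ctsz was 16.5-fold higher in macrophages, at 439, 422 and 331 against 6373 and 7183. Ctsk, a collagen-degrading cathepsin, was at 511, 419.7 and 449 in adipocytes and -0.549 and -7.05 in macrophages, at least 17.6-fold higher in adipocytes. The inhibitor gene Cst3 was bright in both lines, at 15767, 14730.4 and 15847 against 10240.4 and 10364, a log2 difference of 0.58. The third, Ctsf, was dim (27.3, 10.6 and 21.9 against 3.96 and -1.13) and lost its call without adipocyte array 1 (adjusted p = 0.0666) or macrophage array 2 (0.123).

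Antigen presentation genes did not follow the lineage as a group, with 5 of 13 higher in each line by the brightest probe and 3 not called (median -0.08). The 5 higher in adipocytes count H2-K1, whose probes disagreed. Cd74, the invariant chain of class II molecules, was at 4.02, 5.85 and 2.85 in adipocytes and 4468 and 4227 in macrophages, at least 162-fold. The class II chain gene H2-Ab1 was nevertheless dim in both, at 9.10, 9.85 and 13.1 against 30 and 27.5, and was not called (adjusted p = 0.0581). It passed in several alternatives, among them a fit of the 5 monolayer arrays alone (adjusted p = 0.0107). The co-stimulatory genes Cd86, at 908 and 993 in macrophages, and Cd40, at 810.3 and 800.2, were above the bound on no adipocyte array with the probe used, whereas Cd80 stayed low in both lines and was not called. H2-DMb1, which loads peptide on class II molecules, was higher in adipocytes, at 183, 197 and 184 against 38.4 and 14.8, 4.98-fold.

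Class I genes depended on the probe. B2m, the light chain of class I molecules, was 1.25-fold higher in adipocytes, at 14607, 14954 and 14268 against 12203 and 11166, and lost its call after a further quantile normalization (adjusted p = 0.111). H2-D1 was at 5697, 6063 and 5325 against 5639.8 and 6367 and not called, but the mean of its probes was lower in adipocytes by 1.98 on the log2 scale (adjusted p = 1.16e-11, log2 difference -1.98). H2-K1 had 3 probes, with mean intensities of 938 in adipocytes and 174 in macrophages for the first, 103 and 112 for the second and 20.0 and 1414 for the third, so no direction can be given for the gene. Tap1, the peptide transporter, was 2.16-fold higher in macrophages, at 29.7, 53 and 27.4 against 100.5 and 90.5. Tapbp, the loading factor tapasin, was 1.62-fold higher in adipocytes and lost its call without macrophage array 1 (adjusted p = 0.0699).

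**Figure D3:**
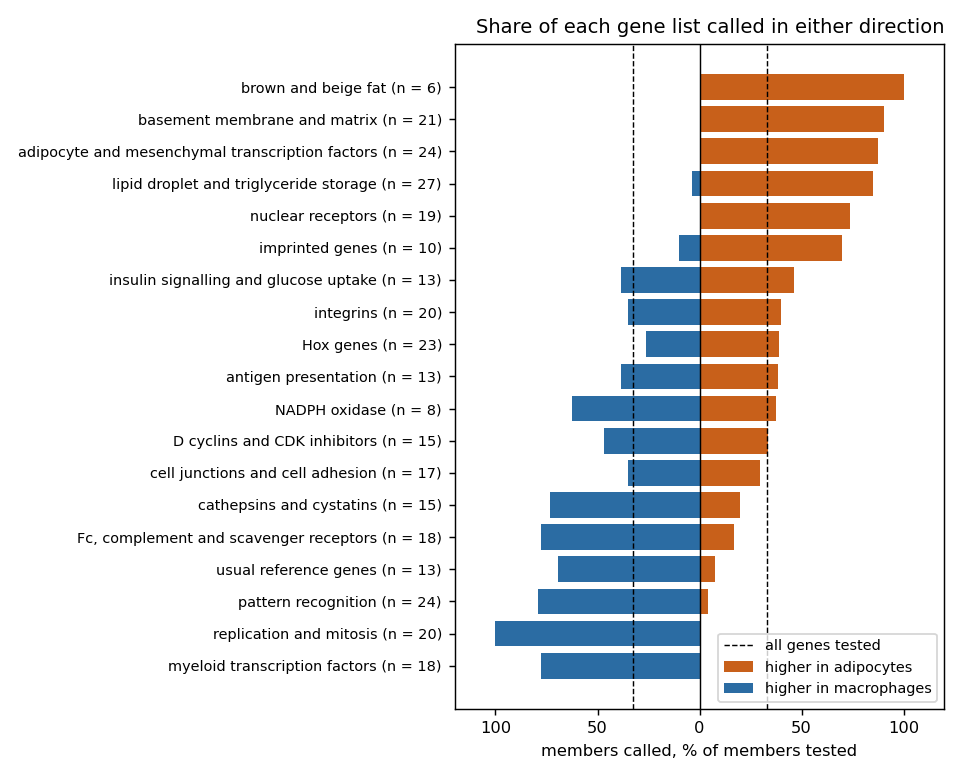
Share of the tested members of each gene list called higher in adipocytes (orange, to the right) or higher in macrophages (blue, to the left), in percent, with the number of members tested. Dashed lines mark the shares over all genes tested, 33.0% and 32.7%. Mesenchymal factors, matrix and lipid droplet genes lie to the right and replication genes, myeloid factors and pattern recognition genes to the left.

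Many signalling and cytoskeletal proteins exist as a blood-cell form and a form used by most other cells. The lines were compared over 30 paralogue pairs listed under these names, though some pairs depart from them. In Slc2a3 with Slc2a4, Fabp5 with Fabp4 and Ucp2 with Ucp1, the other form is a form of fat cells and not of most cells. Both forms were on the array for 24 pairs, and in 11 of them the blood-cell form was higher in macrophages and the other form higher in adipocytes. Of 28 blood-cell forms tested, 25 were higher in macrophages, 24 of them by more than 2-fold and 16 measured in macrophages alone. The other forms were less divided, with 12 of 20 higher in adipocytes, 2 higher in macrophages and 6 not called. The median log2 difference was -5.26 for blood-cell forms and 0.53 for the others. Levels of paralogues come from different probes and were not compared with each other.

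Integrin activators gave a full split. Fermt3, the kindlin of blood cells, was at 2.34, 0.220 and 2.00 in adipocytes and 1629.6 and 1706 in macrophages, at least 62.6-fold higher in macrophages. Fermt2, the kindlin of adherent cells, was at 2169.6, 2130.4 and 1976 and -4.99 and -2.79, at least 78.3-fold higher in adipocytes. The subunit of the actin-nucleating WAVE complex did likewise. Nckap1l was at -2.25, 0.386 and 1.43 in adipocytes and 2455 and 2699 in macrophages, and Nckap1 at 913, 1149 and 1038 and -2.89 and -3.63, so that each line had 1 form above the bound. The glucose transporters Slc2a3 and Slc2a4, given above, were the third such pair, although Slc2a4 is not a form of most cells.

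In the other split pairs the other form was measured in both lines. Rac2, which activates the phagocyte oxidase, was at 1.86, 0.0705 and 1.39 in adipocytes and 3022 and 2859.8 in macrophages, at least 109.9-fold. Rac1 was at 434, 429 and 395 and 295 and 349.5, 1.29-fold higher in adipocytes, a call lost without macrophage array 1 (adjusted p = 0.0831). Was, an activator of the Arp2/3 complex mutated in an immune deficiency, was at 12.8, 11.2 and -7.31 against 1521 and 1565, and its relative Wasl at 1380.4, 1389 and 1396 against 498 and 494. Ptpn6, the phosphatase SHP-1, was at 108, 111 and 155 against 5674 and 5518, and Ptpn11, the phosphatase SHP-2, at 4213, 4836 and 4520.0 against 2786 and 2803. Prkcb was measured in macrophages alone at 679 and 665, while Prkca was 2.02-fold higher in adipocytes, at 268, 257 and 236 against 124 and 110.4. Tetraspanins gave the same picture, with Cd53 at 1773 and 1912 in macrophages alone and Cd81 at 9474, 10140.0 and 10676 against 5573 and 5873.

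Of the remaining split pairs, Gna15 and Gna11, both Gq family subunits, differed in opposite directions, with Gna15 3.21-fold higher in macrophages and Gna11 11-fold higher in adipocytes. Vav1, an exchange factor of blood cells, was at least 95.5-fold higher in macrophages, and Vav2 1.20-fold higher in adipocytes. The Vav2 call was lost without adipocyte array 3 (adjusted p = 0.148) and without either macrophage array (0.161 and 0.0739). Hcls1 was 36.5-fold higher in macrophages and its relative cortactin, Cttn, 1.91-fold higher in adipocytes. The Cttn call was lost without adipocyte array 3 (adjusted p = 0.0952) or macrophage array 2 (0.137).

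In 6 pairs the blood-cell form was higher in macrophages and the other form did not pass. Lcp1, an actin-bundling plastin, was at 2.05, 3.11 and -1.90 against 2428 and 2589, and its relative Pls3 at 606, 630.4 and 605 against 619 and 539.9 (95% interval of the log2 difference -0.14 to 0.31). Itgb2, the integrin chain of leukocytes, was at 4.16, 0.511 and 3.84 against 198 and 196, and Itgb1 at 193, 211 and 199 against 189 and 201 (95% interval -0.21 to 0.29). Inpp5d, the phosphatase SHIP1, was at 566 and 517 in macrophages alone, and Inppl1, SHIP2, at 2213, 2237 and 2403 against 2327 and 2606 (95% interval -0.26 to 0.04). Dock2 with Dock1, Arhgap9 with Arhgap10 and Pik3cd with Pik3ca made up the rest. Dock1 passed with no filter on dim probes (adjusted p = 0.0274) and with no intensity trend (0.0368).

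A few pairs went against the division. Fabp5 and Fabp4, the fatty acid-binding proteins of macrophages and fat cells, were both higher in adipocytes, Fabp5 at 922, 877 and 851 against 30.2 and 2.85 and Fabp4 at 459.6, 498 and 449 against -3.69 and 2.38. Coro1a and Coro1c, actin-binding coronins, were both higher in macrophages. Coro1a was at 10.6, 2.33 and -0.301 against 18519 and 18286, at least 685-fold, and Coro1c at 1218, 1237 and 1339 against 3741 and 4036, 3.05-fold. Of the D cyclins, Ccnd3, listed as the blood-cell form, was not called, and its partner Ccnd1 was 3.94-fold higher in macrophages. Syk, a kinase of immune receptors, was dim in both lines with the probe used (-1.31, 5.82 and 1.01 against 20.1 and -1.96), and was called higher in macrophages without macrophage array 2 (adjusted p = 0.0491).

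For other pairs the partner form was not on the array or not bright enough to be tested. Among their blood-cell forms, Plcg2, a phospholipase of immune receptors, was at 2.87, 12.4 and 2.17 against 1493 and 1515, with adipocyte array 2 alone above the bound, and Plek, a protein kinase C substrate of platelets and leukocytes, was measured in macrophages alone at 1157 and 1005. Arhgdib, Gnai2, Stk4 and Ptk2b were above the bound in both lines and 4.95-fold, 2.55-fold, 3.88-fold and 2.81-fold higher in macrophages.

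**Figure D4:**
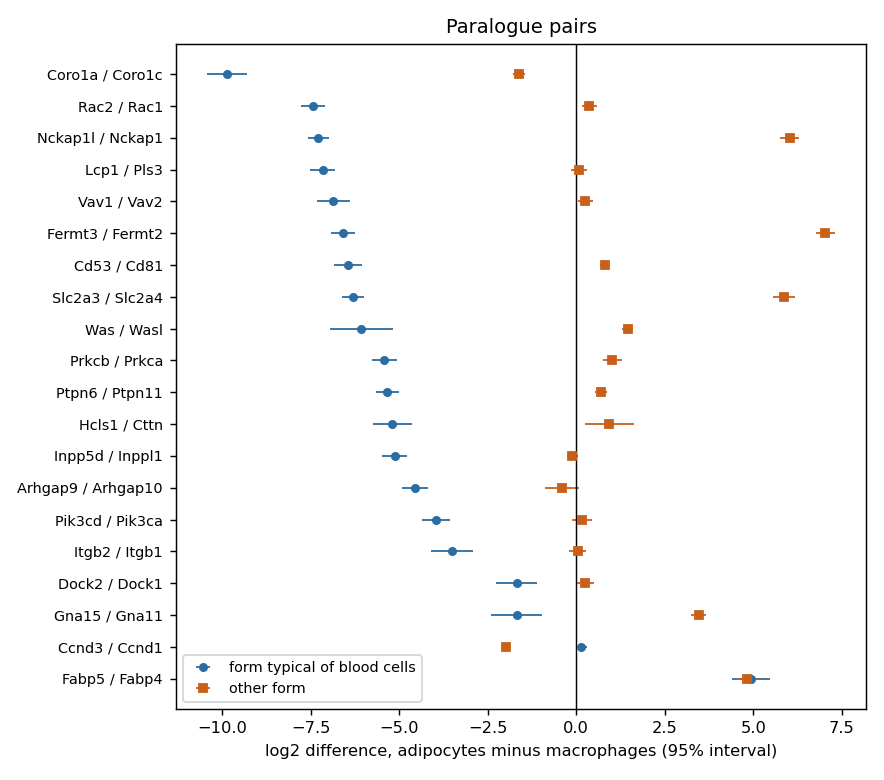
Log2 difference (adipocytes minus macrophages) with its 95% interval for the 20 paralogue pairs of which both forms were tested, with the blood-cell form as blue circles and the other form as orange squares. Blood-cell forms lie to the left of 0 for all pairs but Ccnd3 and Fabp5, and other forms lie near 0 or to its right except for Coro1c and Ccnd1.

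Adipocytes were richer in extracellular matrix genes, with 19 of 21 tested higher and 0 lower (median 3.70), 12 of them measured in adipocytes alone. Bgn, a small collagen-binding proteoglycan, was at 19605, 19839 and 21231 in adipocytes and 5.39 and 13.9 in macrophages, at least 714-fold, with 1 macrophage array above the bound. Sparc, a matrix glycoprotein, was at 14369, 14459.7 and 13572 and at least 526-fold higher. Loxl1, which cross-links elastin, was at 6763, 6799 and 6774 and at least 253-fold higher, and Dcn, a relative of Bgn, at 5717, 5561 and 5129 and at least 204-fold. The laminin chain genes Lama2 and Lama4 were not called. Lama4, at 34.7, 51.7 and 8.74 against 22.3 and 4.50, was called higher in adipocytes without adipocyte array 3 (adjusted p = 0.0313) and with replicate number as a block (0.0460).

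Integrin genes went both ways, with 8 of 20 higher in adipocytes, 7 higher in macrophages and 5 not called. Itga7 and Itga1, receptors for laminin and collagen, were measured in adipocytes alone, at 449, 443 and 420.1 and 216, 259 and 264. Itgam, the alpha chain of the complement receptor, was measured in macrophages alone at 176 and 217, and Itgal, the alpha chain of the leukocyte integrin LFA-1, was at 84.7, 103 and 101 in adipocytes and 431 and 513 in macrophages, 4.34-fold. Itga9, a receptor for tenascin and other ligands, was at -1.93, -1.74 and 1.59 against 793 and 829, at least 30.8-fold higher in macrophages. Itgb1, Itgb5, Itgav, Itgb3 and Itga3 were not called.

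Of 17 junction and adhesion genes tested, 5 were higher in adipocytes, 6 higher in macrophages and 6 not called. Gja1, which encodes the gap junction protein connexin 43, was higher in macrophages, at 184, 209 and 201 in adipocytes and 1506 and 1319.7 in macrophages, 6.67-fold (adjusted p = 4.28e-12). Vcam1 and Icam1 are both adhesion molecules that leukocytes bind. Vcam1 was at 1035, 1024 and 814 in adipocytes and 1.07 and -0.333 in macrophages, and Icam1 at 4.34, 13.1 and 12.4 and 934 and 942, so they lay in opposite lines. Cd44, the hyaluronan receptor, was 5.15-fold higher in macrophages, at 429.8, 409 and 398 against 2229.8 and 2147.

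All 20 replication and mitosis genes tested were higher in macrophages, 19 of them by more than 2-fold, with a median of -2.36. Mcm5, a subunit of the replicative helicase, was at 573, 761 and 627 in adipocytes and 7553 and 7329 in macrophages, 11.2-fold (adjusted p = 7.43e-14). Rrm2, the ribonucleotide reductase subunit made in S phase, was at 140.3, 152 and 114 against 1343 and 1178, 8.46-fold. Mcm3, another helicase subunit, was 13.8-fold higher, at 50, 73.4 and 58 against 961 and 1105. All adipocyte values of Mcm5, Rrm2 and Mcm3 lay below all macrophage values, but above the noise bound. Ccna2, a cyclin of S phase and mitosis, was above the bound in macrophages alone, and Mcm6, counted by its brightest probe, had probes called in opposite directions.

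Cell cycle regulators upstream of these genes went both ways, with 5 of 15 higher in adipocytes, 7 higher in macrophages and 3 not called. The D cyclin genes were above the bound on all 5 arrays. Ccnd1 was at 2330.3, 2239 and 2162 in adipocytes and 8799.7 and 8963 in macrophages, 3.94-fold higher in macrophages, and Ccnd2 at 2999, 2969 and 3024 against 324 and 343, 8.63-fold higher in adipocytes. Ccnd3 was not called, at 2482, 2795 and 2853 against 2449.7 and 2438 (95% interval of the log2 difference -0.01 to 0.30), and was called higher in adipocytes without adipocyte array 1 (0.21, adjusted p = 0.0186).

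Cdkn2a and Cdkn2b, inhibitors of the INK4 family, showed the largest differences of these 15 genes. Cdkn2a, whose locus encodes the inhibitors p16 and p19ARF, was at 3169, 3110.3 and 3068 in adipocytes and -4.32 and -6.83 in macrophages, at least 116-fold higher in adipocytes by this probe. Its other 2 probes also differed in this direction, with means of 1209 and 1416 in adipocytes and 17.2 and 3.22 in macrophages, so that 1 probe exceeded the bound in both lines. The neighbouring inhibitor Cdkn2b was at 567, 550.2 and 588 against -0.547 and -4.40, at least 21.7-fold, and Cdkn2c at 3447, 3609 and 3609.6 against 352 and 261, 11.2-fold. Cdkn2d was 2.72-fold higher in macrophages, at 117, 159 and 141 against 459.8 and 355. Cdkn1c, an imprinted inhibitor of another family, was measured in macrophages alone at 210.0 and 212.

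The lines were also compared over 52 ligand and receptor pairs, of which 46 had both members on the array and 29 had both members called. In 7 pairs the ligand was higher in adipocytes and the receptor in macrophages, and in 8 pairs the ligand was higher in macrophages and the receptor in adipocytes. In 10 pairs both were higher in adipocytes and in 4 pairs both were higher in macrophages. These are messenger RNA levels of lines grown apart, and no signalling was measured.

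From adipocytes to macrophages, Csf1, the growth factor of macrophages, was at 169, 179.7 and 161 in adipocytes and 38.2 and 24.3 in macrophages, 3.97-fold, opposite to its receptor Csf1r given above. Il34, the other ligand of that receptor, was dim, at 32.3, 23.3 and 7.71 against -6.70 and -0.400. Cxcl12, a chemokine of stromal cells, was at 2670.3, 2672 and 2539.7 against 18.1 and 25.8, 70-fold, and its receptor Cxcr4 at -4.62, 8.58 and -4.11 against 177 and 147, at least 6.59-fold higher in macrophages. Cx3cl1, the membrane-bound chemokine fractalkine, was measured in adipocytes alone at 577, 553 and 565, and its receptor Cx3cr1 in macrophages alone at 779 and 691. Pros1, a bridging ligand on apoptotic cells, was at 729.5, 842 and 722 against 43.5 and 30.8 and 14.8-fold higher in adipocytes, opposite to its receptor Mertk. Anxa1 was 2.15-fold higher in adipocytes and its receptor Fpr2 at least 7.97-fold higher in macrophages. Adipoq was paired with 2 receptor genes, of which Adipor1 was 1.28-fold higher in macrophages and Adipor2 4.57-fold higher in adipocytes.

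From macrophages to adipocytes, Tnf, the inflammatory cytokine, was at 3.32, 0.401 and -3.74 in adipocytes and 1062 and 871 in macrophages, at least 36.4-fold. Its widespread receptor Tnfrsf1a was at 591, 557 and 661 against 213 and 233, 2.59-fold higher in adipocytes, and its other receptor Tnfrsf1b was at 18.1, 12.6 and 1.52 against 196 and 144, at least 6.21-fold higher in macrophages. Osm, a cytokine of the interleukin-6 family, was at 658 and 675 in macrophages alone, and its receptor Osmr at 325, 339.9 and 343 against 23.7 and 12.7, 10.4-fold higher in adipocytes. Pdgfb was at 0.451, 4.09 and 39.5 against 1973 and 1954, with adipocyte array 3 alone above the bound, and its receptor Pdgfrb at 145, 129 and 122 against -0.786 and 5.61, at least 5.49-fold higher in adipocytes.

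Tgfb1, at 345, 310.5 and 358 in adipocytes and 1203 and 1366 in macrophages, was 3.68-fold higher in macrophages, and its receptor subunits divided. Tgfbr1 was 3.02-fold higher in adipocytes, at 2215, 2179 and 2233 against 734 and 707, and Tgfbr2 1.99-fold higher in macrophages, at 1438, 1619 and 1659 against 3026 and 3271. Hbegf, an EGF family ligand, was at 6.62, 8.66 and 1.58 against 51.7 and 33.5, and its receptor Egfr at 67.9, 68.9 and 81.3 against 0.852 and -7.85. The interleukin-1 genes were dim, with Il1b at 6.04, 6.44 and 1.96 against 34 and 26.5 and the antagonist Il1rn at 17.3, 22.7 and 21.7 against 52 and 59.2. Their receptor Il1r1, at 18, 28 and 29.9 against -1.67 and 3.49, lost its call without macrophage array 1 (adjusted p = 0.0891). Il15 was 1.92-fold higher in macrophages, and its receptor Il15ra, at 54.5, 49.3 and 41.8 against 34.3 and 17, lost its call without adipocyte array 1 (adjusted p = 0.104), adipocyte array 2 (0.0807) or macrophage array 2 (0.367). With no filter on dim probes, or a filter at 5 times the bound, 5 pairs ran from macrophages to adipocytes in place of 8.

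**Figure D5:**
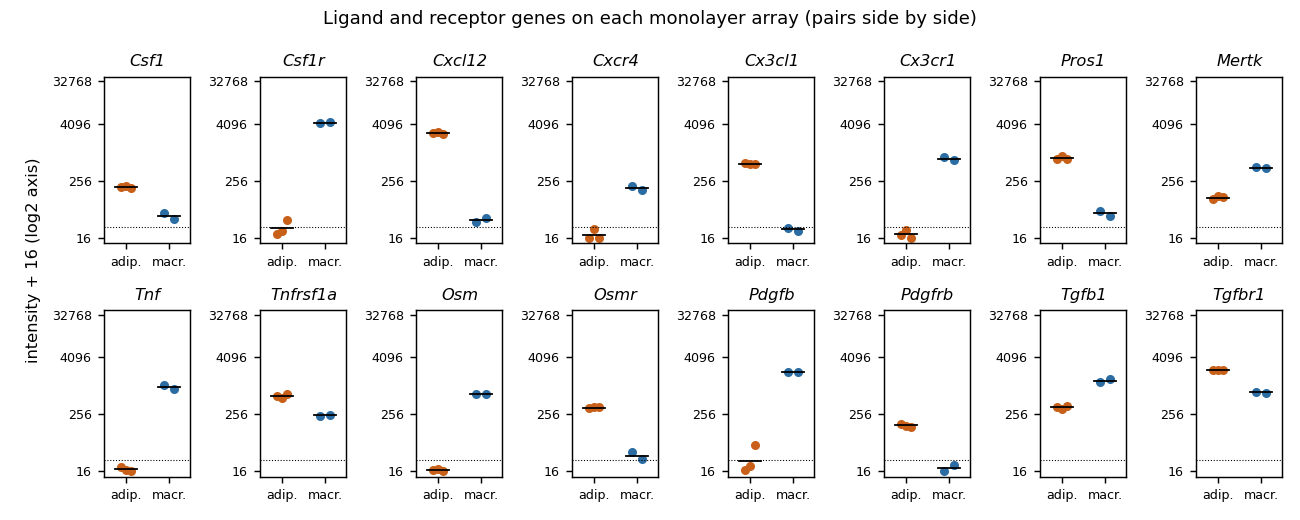
Intensity + 16 on a log2 axis for 16 ligand and receptor genes on each monolayer array (3 adipocyte arrays in orange, 2 macrophage arrays in blue), each ligand followed by its receptor. Black bars are means of the log2 values and the dotted line is the noise bound. In the upper row the ligands lie high in adipocytes and the receptors high in macrophages, and in the lower row the reverse.

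Pairs with both members in adipocytes held growth factors of mesenchymal cells. Vegfa, which drives vessel growth, was at 3893, 3863 and 3618 in adipocytes and 0.906 and 2.19 in macrophages, at least 141-fold, and its receptor Flt1 at 59.4, 71.8 and 54.1 and measured in adipocytes alone. Gas6 was at 3392, 3772 and 3627 against 58.9 and 41.7, 54.9-fold, together with its receptor Axl. Pairs of Igf1 with Igf1r, Igf2 with Igf2r, Pdgfa with Pdgfra, Hgf with Met and Fgf2 with Fgfr1 were also higher in adipocytes for both members, though the probes of Igf1r disagreed and their mean was not called (adjusted p = 0.498). Of the chemokine genes listed, Ccl2, Ccl3, Ccl4 and Ccl5 were higher in macrophages and Cxcl12, Cx3cl1 and Cxcl1 higher in adipocytes. Ccl4 was at -1.10, -1.56 and -4.19 in adipocytes and 13281 and 12471 in macrophages, at least 479-fold, and Ccl3 at -6.57, -5.36 and 4.32 against 5246 and 4887, at least 189-fold. Ccl2, which recruits monocytes, was measured in both, at 213, 249 and 173 against 3720.4 and 3657, 16.4-fold. Ccl7, its neighbour in function, was at 1329, 1310.2 and 1065 against 1417 and 1285 and not called (log2 difference -0.13, 95% interval -0.34 to 0.07).

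Imprinted genes, which are read from the copy of 1 parent, were mostly higher in adipocytes. Of 10 imprinted genes tested, 7 were higher in adipocytes, 1 higher in macrophages, namely Cdkn1c, and 2 not called. Igf2, a fetal growth factor, was at 11088, 9733 and 12301 in adipocytes and 1.96 and 0.314 in macrophages, at least 409-fold. Ndn, which encodes necdin, was at 1466, 1459 and 1272 and at least 52.5-fold higher. Mest and Grb10 were not called, and Mest was called higher in adipocytes without adipocyte array 2 (adjusted p = 0.0358).

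Hox genes, which mark position along the body axis, went both ways, at shares near those of all genes. Of 23 tested, 9 were higher in adipocytes, 6 higher in macrophages and 8 not called. The 4 largest differences towards adipocytes were in the Hoxd cluster. Hoxd8 was at 1139, 1115 and 1049 in adipocytes and -4.64 and -6.76 in macrophages, at least 41.5-fold, and Hoxd4 at 609, 628 and 468 and at least 21.6-fold, with Hoxd9 and Hoxd3 at least 8.56-fold and 5.94-fold. Towards macrophages, Hoxb7 was at -2.88, -3.79 and -4.38 against 1755 and 1885, at least 68.2-fold, and Hoxc6 at 49.6, 38.6 and 38.8 against 1020.3 and 927, 17-fold, followed by Hoxb5 and Hoxb6.

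Xist, the RNA that silences an X chromosome in female cells, was at 3.31, 7.53 and 5.57 in adipocytes and 785 and 727 in macrophages, at least 28.7-fold. All 4 of its probes had the same direction, and their means in macrophages ran from 317 to 756. The Y-linked gene Uty exceeded the bound on all 5 arrays with 1 of its 4 probes and on no array with the other 3, and did not pass (log2 difference -0.25, 95% interval -1.04 to 0.55). Eif2s3y and Kdm5d were above the bound on no monolayer array.

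Among genes above the noise bound on all 5 arrays, the largest differences do not rest on a bound. Towards adipocytes they were, after Adipoq, Sort1 at 7179, 7964 and 8270.2 against 27.3 and 16.4 (208-fold), a sorting receptor of glucose transporter vesicles, and the small heat shock protein gene Hspb8 at 4868, 4698 and 5259 against 24.8 and 12.7 (145-fold). The growth hormone receptor gene Ghr, at 11864, 11835 and 10613 against 103 and 90.7 (102-fold), and the growth hormone feedback inhibitor gene Socs2, at 3177, 3229 and 3449 against 29.6 and 13.5 (90-fold), were both in this group. Mgst1, Gstp1 and Car5b, which encode glutathione transferases and a mitochondrial carbonic anhydrase, were 98.7-fold, 79.4-fold and 82.1-fold higher.

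Towards macrophages the leading gene was Lyz1, a lysozyme, at 66.8, 33.7 and 22.1 in adipocytes and 25745 and 24596 in macrophages (467-fold). Lysozyme genes are near-identical copies, so signal of Lyz1 and its copy cannot be told apart with certainty. Plau, the plasminogen activator urokinase, was at 31, 11.3 and 21.9 against 4110.0 and 3896 (110.1-fold), and its receptor Plaur was also higher in macrophages (10.1-fold). Nrros, which tethers latent TGF-β on myeloid cells, was 105-fold higher, at 14.1, 15.7 and 30.1 against 3685 and 3682. The adaptor genes Dok2 and Lat2 were 103-fold and 57.1-fold higher, and Clec4e, Tmem200b and Guca1a completed this group, the last being a calcium sensor known from photoreceptors, at 26.4, 26.6 and 27.4 against 2454 and 2523.

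Usual reference genes were not equal between the lines. Sdha was on the array but above the bound on no monolayer array and was not tested. By the brightest probe, 9 of 13 tested were higher in macrophages, 1 higher in adipocytes, namely B2m, and 3 not called, where the 9 count Actb and Gusb, whose probes disagreed, with a median of -0.78 against -0.02 over all genes. Gapdh, a glycolytic enzyme, was at 11027, 10747 and 12528 in adipocytes and 16704 and 16664 in macrophages, 1.46-fold higher in macrophages (adjusted p = 3.27e-06). Tbp, the TATA-binding protein gene, was at 155, 185 and 184 against 405 and 415, 2.24-fold, and Hprt at 4226, 4518 and 3945 against 7409 and 7163, 1.72-fold. Pgk1, Tubb5, Tfrc and Ywhaz were 2.16-fold, 2.06-fold, 1.84-fold and 1.69-fold higher in macrophages. Gusb was 4.12-fold higher by its brightest probe, the 1 member past the 2-fold margin, though another of its probes was called in the other direction. Actb had 5 probes that disagreed. The brightest was 2.21-fold higher in macrophages, at 10650.5, 10658 and 10358 against 22319 and 24526, while the mean of the probes was higher in adipocytes (log2 0.66, adjusted p = 3.84e-05), so no direction is given. Rplp0 (95% interval of the log2 difference -0.24 to 0.16), Eef1a1 (-0.21 to 0.04) and Ppia (-0.04 to 0.26) were not called. Ppia was called higher in adipocytes without macrophage array 1 (adjusted p = 0.0107), and Eef1a1 higher in macrophages after a further quantile normalization (0.0443) or over the mean of its probes (0.0240).

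The brightest genes whose interval lay within 0.5 of 0 on the log2 scale were mostly genes of the ribosome. They were Rplp1, Rps12, Eef1a1, Rpl9, Ppia, Rpl37, Rpl38 and Rps2. Rps12 was at 25189, 25343 and 24460.2 in adipocytes and 25774 and 25104 in macrophages (95% interval -0.17 to 0.12), and Rpl37 at 21965, 24732 and 24189.6 against 23779 and 24131 (95% interval -0.16 to 0.11). Rplp1 and Rpl9 passed the test with log2 differences of 0.19 and 0.18, but lost their calls without some arrays (adjusted p up to 0.264 and 0.0892). The highest intensity on any array was between 25467.5 and 29664, so these probes lay near the top of the scale.

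Different probes of a gene did not always point the same way. Among 5022 genes with several probes tested, 175 (3.48%) had 1 probe called higher and another called lower. H2-K1 and Kif23 had probes farthest apart, together with Pdxdc1, Rarres2, Scara5 and Tmem132a. Kif23, a kinesin of cell division, was 10.5-fold higher in adipocytes by its brightest probe, at 1831, 1855 and 2221 against 181 and 164, while 3 other probes were lower in adipocytes and the mean of its probes was lower by 1.34 (log2 difference -1.34, adjusted p = 8.21e-09). Rarres2, which encodes the adipokine chemerin, was at 16123, 15246 and 15714 in adipocytes and -3.70 and -3.58 in macrophages by its brightest probe, at least 584-fold, and another probe gave the same direction, while the dimmest had means of 68.3 and 140 in the other direction. Tmem132a had 2 probes higher in adipocytes and 1 at a mean of -1.96 in adipocytes against 591 in macrophages.

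The contrast was repeated on the bilayer arrays, which share no sample with the monolayer arrays. The slide of each sample is not known, so the repeat may share an effect of slide. Fitted alone, the 5 monolayer arrays gave 8139 genes called and the 5 bilayer arrays 7919. Of these, 7113 were called in the same direction in both, which is 87.4% of the monolayer and 89.8% of the bilayer calls, and 16 were called in opposite directions. Of genes measured in 1 line alone in monolayer, 625 of 836 in adipocytes and 406 of 598 in macrophages met the same condition in the bilayer. The difference between the lines itself changed with condition for 315 genes (2.56%) in the fit of all arrays, and 2028 genes had an unadjusted p under 0.05. That count fell to 138 to 222 when any 1 monolayer array was left out. Ccl2, 16.4-fold higher in macrophages in monolayer, had the largest such change among the named genes called, with means of 212 in monolayer and 614 in bilayer adipocytes.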

How the data were processed

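Total RNA from both lines was hybridised to 10 Illumina bead arrays. The authors deposited linear intensities of 45281 probes per array, already background-subtracted and normalized. The methods of subtraction and normalization are not given in the sources used here, and the submitters' processing notes list GenomeStudio 2011.1 without a role. The deposited intensities had a median of 5.08 to 5.10 on every array, and 35.5% lay below 0. A separate scanner table of 20 columns could not be tied to samples by name and was not used. The 2 slides it shows, with 6 and 4 arrays, were therefore not tested as a batch. The series holds 6 adipocyte and 4 macrophage arrays, so slide may coincide with line in monolayer and bilayer alike. In that case an effect of slide could not be told apart from the difference between the lines.

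Gene symbols came from GEO's platform annotation. Of the probes, 34885 had 1 symbol and were used, 18 had several and 10378 none, and 34807 were found in the RefSeq table with 0 symbols to update, giving 19057 genes. Values below 0 were set to 0 and log2(intensity + 16) was taken. Probes above an intensity of 10.9 on at least 2 of 10 arrays were kept, 41.9% of probes exceeding it on each array, and the brightest represented its gene. Groups followed the labels. The 4 groups of line and condition were fitted in R 4.3.3 with limma 3.58.1 (lmFit, eBayes with an intensity trend, treat for the 2-fold margin), so the spread was pooled over all 10 arrays. Tests were two-sided with Benjamini-Hochberg adjustment, called at 0.05. On simulated data with 200 genes changed among 12324 and no difference elsewhere, 62% of 2-fold and 98% of 4-fold changes were recovered. With so few changed genes the adjustment is stricter than in the real contrast, where 65.7% were called. The recovery rates therefore do not carry over to that contrast. Tables and figures were made in Python 3.11.15 with pandas 2.3.3, numpy 2.4.6 and matplotlib 3.10.9.

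The comparison, the gene lists and the pairs were chosen with earlier results of these data known. Members of the pairs, markers and factor lists could be named. In each other list the 4 largest differences each way were named, with members not called where 5 or fewer. Over all genes, the 8 largest differences each way among genes measured on all 5 arrays, the 8 brightest genes with an interval within 0.5 of 0 and the 6 with the most opposed probes were named, as were all reference and sex-linked genes. Of the members listed, 95 were on the array but too dim to be tested. Replicate numbers were not used to pair the samples in the reported fit. Alternatives covered the pseudocount, filter, probe choice, samples fitted, prior variance, normalization, replicate block and leaving out each monolayer array.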

Additional observations from a re-analysis of the deposited data

Results flagged for a closer look

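For 20 of the genes described, the difference between the lines was not the same in monolayer and in bilayer, by limma's test of that change over all genes. The change is given as the bilayer minus the monolayer value of the log2 difference (adipocytes minus macrophages). Groups of 2 and 3 arrays are too small for a test of single outlying samples.

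Ccl2, the monocyte chemokine, changed by 1.74 (adjusted p = 6.79e-05), with means going from monolayer to bilayer from 212 to 614 in adipocytes and 3689 to 3077 in macrophages. Ccl7 changed by 0.93 (adjusted p = 0.00253), from 1235 to 2017 in adipocytes and 1351 to 1153 in macrophages, and it was not called in monolayer. Osmr, the oncostatin M receptor, changed by 1.12 (adjusted p = 0.0108), from 336 to 1268 in adipocytes and 18.2 to 41.0 in macrophages. The glucose transporter gene Slc2a1 changed by 0.80 (adjusted p = 0.0263), from 1793 to 3613 in adipocytes and 3372 to 3937 in macrophages, and the glycolytic genes Pgk1 and Gapdh changed by 0.86 and 0.54. Plin2, the droplet protein not called in monolayer, changed by 0.95 (adjusted p = 0.00526), from 761 to 1162 in adipocytes and 729 to 567 in macrophages. Cebpd and the integrin gene Itgb5, neither called in monolayer, changed by 0.59 and 0.75.

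The TGF-β receptor genes changed in the same direction, Tgfbr1 by 0.61 and Tgfbr2 by 0.59. The log2 difference also rose for Adipoq (by 0.65), with means going from 22041 to 20886 in adipocytes and 15.5 to 3.01 in macrophages, the latter near the noise bound and then below it, and for Gas6 (by 0.97), from 3597 to 4345 in adipocytes and 50.3 to 26.1 in macrophages. It fell for Cdkn2c (-0.61), Irf5 (-0.89), Myl9 (-1.21), Ndn (-0.77), Pdxdc1 (-0.82), Socs2 (-0.94) and Tmem132a (-0.72). The probes of Pdxdc1 and Tmem132a disagreed in monolayer. The adjusted p of the 20 genes ran from 6.79e-05 to 0.0492.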

How the results depend on the processing

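The count of 8091 genes ran from 7352 (filter at 5 times the noise bound) to 8739 (line effect averaged over both conditions), and from 7375 to 7829 without 1 monolayer array. Of 31 counts within gene lists, 29 stayed within 1.5 times the reported value in all 18 settings. Among 4888 values of named genes, 4796 kept direction and side of the threshold, 50 lost the call (13 genes) and 37 gained it (20 genes). In 5 the direction turned. With the mean of a gene's probes these were H2-K1 (-1.04), Actb (0.66) and Kif23 (-1.34), whose probes are opposed. With the line effect averaged over conditions they were S100a8 (-0.013) and Ccl7 (0.33), and the cause was not tested.

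Genes whose line difference changed with condition were 104 with no filter, 81 with no intensity trend and 138 to 222 without 1 array. Pairs from macrophage ligand to adipocyte receptor were 5 with no filter and 5 with the filter at 5 times the bound. Lymphocyte markers called were 0 with that filter, 0 with the averaged line effect and 0 to 2 without 1 array. Granulocyte and dendritic cell markers called were 1 with no filter, with no trend or with the replicate block, and 1 to 2 without 1 array. Genes measured in 1 line alone were 492 and 323 when 5 times the bound was asked for.

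With replicate number as a block, 7935 genes were called against 8091. Deviations of same-numbered arrays of the lines correlated at r = -0.03 and -0.02 over genes. The deviations of the 2 monolayer macrophage arrays mirror each other, so these values cannot decide whether the numbers pair cultures. The slide as a block was not run, since no column is tied to a sample, and slide may coincide with line.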

Other observations

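Some genes of these lineages were not above the noise bound in either line. The usual reference gene Sdha was also below it on all 5 arrays with its brightest probe. A low value may reflect the probe and not the level of the gene, which was not tested. The class II transactivator gene Ciita was at -0.18, -0.55 and -3.43 in adipocytes and -4.56 and -2.50 in macrophages, and the class II chain genes H2-Aa and H2-Eb1 were likewise below it on all 5 arrays with their brightest probe, beside the high Cd74 of macrophages. The chemokine receptor genes Ccr1 and Ccr2 were below the bound on all 5 arrays, so the receptors of Ccl3 and Ccl2 in the list had no measured level here. Il1a and Ifnb1 were below it on all 5 arrays, and Il6 and Il10 exceeded it on 1 adipocyte array each. Fcer1g, which encodes an Fc receptor signalling chain, reached 10.3 and 2.99 in macrophages and did not exceed the bound, although Fcgr3 was bright there. Of 95 listed genes that could not be tested, 82 exceeded the bound on no monolayer array with their brightest probe.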
